A study of Mus musculus with 7 samples.

Results

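The genes described here are 9 transcription factors by which the layers and the projection neurons of the cerebral cortex are told apart: Tbr1, Foxp2, Fezf2, Bcl11b, Rorb, Cux2, Cux1, Neurod2 and Neurod6. They were chosen by gene symbol as a set known from cortical development, with earlier results of these data known. All 9 were found among the 19257 named genes of the deposited table. In GENCODE on GRCm38 the deep-layer genes lie at chr2:61802930-61814114 (Tbr1), chr6:14901349-15441977 (Foxp2), chr14:12342094-12348189 (Fezf2) and chr12:107910403-108003602 (Bcl11b), and the upper-layer genes at chr19:18930605-19111196 (Rorb), chr5:121856366-122050102 (Cux2) and chr5:136248135-136567490 (Cux1). Neurod2 lies at chr11:98325415-98329648 and Neurod6 at chr6:55677822-55681263. The RNA came from mouse gliomas collected when the animals had reached the clinical endpoint, 1 library per brain, from tissue picked under fluorescence. Both groups had been electroporated in utero with 1 construct that carried Cas9 and guides that disrupt tumor suppressors (Trp53 and Nf1 are 2 of those targets), together with a piggyBac transposon, in mice of CD-1 and C57BL/6 background. The 3xCR group (replicates 2, 3 and 4) had no further gene, whereas the transposon of the GPC6 group (replicates 1 to 4) also overexpressed the glypican GPC6. The promoter that drove GPC6 and the age of each animal are not given in the sources used here, and tumor-free cortex was not analysed here.

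The cortex is built in layers that are born from the inside outwards. Projection neurons of the deep layers leave the cortex, to the thalamus from layer 6 and to the brainstem and spinal cord from layer 5, and those of the upper layers connect cortical areas with each other. Tbr1 and Foxp2 mark layer 6, Fezf2 and Bcl11b (also called Ctip2) the subcerebral neurons of layer 5, Rorb the input layer 4, and Cux1 and Cux2 the upper layers. Neurod2 and Neurod6 are basic helix-loop-helix factors of glutamatergic neurons of the forebrain in all layers. Several of these genes are also used outside cortical neurons: Bcl11b in striatal projection neurons and T cells, Foxp2 in striatum and thalamus, Rorb in thalamus and astrocytes, and Cux1 in most cell types.

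Values per library are listed in the order of replicates 2, 3 and 4 for 3xCR and 1, 2, 3 and 4 for GPC6. Between 7197692 and 18879762 reads were counted on genes per library, and 3 reads, the limit that a count of 0 allows, stood for 1.64 to 4.64 normalized counts (counting error only). Gpc6 itself had 217, 226 and 126 normalized counts in the 3xCR libraries and 675, 263, 3434 and 5084 in the GPC6 libraries, so that the tumor labelled GPC6 replicate 2 had hardly more Gpc6 RNA than a 3xCR tumor. GPC6 replicate 1 stood apart in its makeup, with 810 summed normalized counts of 12 proliferation genes against 6113 to 16228 in the other 6 libraries, and 1182 of 7 hypothalamic neuron genes against 16.7 to 65.6. Fold changes without each of these 2 libraries are given with each gene. Nothing in the labels assigns the libraries to batches.

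The promoters of Tbr1, Neurod2 and Neurod6 are shown first, because among the genes with a mean of 50 normalized counts or more the profile of Tbr1 over the libraries was nearest to that of Neurod6, and the profile of Neurod6 to that of Neurod2. The sequences are from RefSeq on GRCm38.p6 (the mm10 assembly), which held 8 of the 9 genes, Foxp2 being the one without an entry. They run 5′ to 3′ up to the base before the first transcript position, with the 3 bases of Neurod2 that GENCODE places inside the transcript left off. Capitals mark CANNTG, the E-box to which basic helix-loop-helix proteins such as the Neurod factors bind, searched on both strands, on which it reads alike.
Tbr1, chr2:61804203-61804452, plus strand: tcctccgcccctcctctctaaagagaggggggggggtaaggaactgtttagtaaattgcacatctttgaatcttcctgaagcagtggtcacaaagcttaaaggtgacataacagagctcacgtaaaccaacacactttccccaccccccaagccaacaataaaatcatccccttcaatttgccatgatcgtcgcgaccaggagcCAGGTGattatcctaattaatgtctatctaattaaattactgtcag
Neurod2, chr11:98329649-98329895, minus strand: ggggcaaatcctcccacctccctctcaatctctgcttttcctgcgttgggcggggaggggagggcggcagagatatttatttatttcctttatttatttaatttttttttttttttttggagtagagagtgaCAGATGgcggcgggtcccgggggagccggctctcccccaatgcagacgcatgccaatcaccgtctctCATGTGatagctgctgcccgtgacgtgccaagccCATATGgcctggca
Neurod6, chr6:55681264-55681513, minus strand: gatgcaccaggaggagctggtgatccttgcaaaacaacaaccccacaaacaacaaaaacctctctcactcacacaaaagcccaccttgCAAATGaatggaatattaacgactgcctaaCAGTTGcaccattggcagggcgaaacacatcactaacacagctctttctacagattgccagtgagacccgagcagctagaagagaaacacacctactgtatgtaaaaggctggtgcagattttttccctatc
The 250 bases before the start held 1 such hexamer in Tbr1, 3 in Neurod2 and 2 in Neurod6. At least 1 was present in 66.2% of 32851 RefSeq promoters of this length, so its presence does not set these promoters apart. The form CAGATG, counted on both strands and a part of the CANNTG matches, occurred once in Neurod2 and in neither of the others, against 14.4% of all promoters. The Tbr1 window is also covered by an exon of a processed Tbr1 transcript without a coding sequence in GENCODE.

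Tbr1 is a T-box factor that specifies layer 6 neurons. Its normalized counts were 61.9, 30.7 and 0 in the 3xCR libraries, and 617, 0, 269 and 48.4 in the GPC6 libraries. A library of each group thus had no read of Tbr1, where up to 4.14 and 2.96 normalized counts could have gone undetected, and the 3xCR values fell within the GPC6 range. The means were 30.9 ± 31.0 (SD, n = 3) and 233 ± 281 (SD, n = 4). This is a log2 fold change of GPC6 against 3xCR of 2.09 on the log2(normalized count + 1) scale, with a 95% interval from -3.30 to 7.48 and a limma adjusted p of 0.803. Its value was 0.91 without GPC6 replicate 1, 4.00 without GPC6 replicate 2 and 0.26 without 3xCR replicate 4.

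Neurod2 and Neurod6, which drive and maintain the differentiation of glutamatergic projection neurons, followed the same order of libraries. Neurod2 had 49.9, 32.6 and 1.38 normalized counts in the 3xCR libraries, and 442, 2.96, 216 and 49.4 in the GPC6 libraries. Neurod6 had 46.0, 13.02 and 0 in the 3xCR libraries in the same order, and 403, 0.988, 141 and 22.6 in the GPC6 libraries. In both genes GPC6 replicates 1 and 3 were the 2 highest of the 7 libraries, while 3xCR replicate 4 and GPC6 replicate 2 held at most 3 reads. The means were 27.9 ± 24.6 (SD, n = 3) against 177 ± 199 (SD, n = 4) for Neurod2, and 19.7 ± 23.7 against 142 ± 185 for Neurod6. Their log2 fold changes were 2.05 (95% interval -1.94 to 6.04, limma adjusted p = 0.749) and 2.22 (-2.33 to 6.77, adjusted p = 0.759). Without GPC6 replicate 1 they were 1.14 and 1.11, without GPC6 replicate 2 they were 3.41 and 3.67, and without 3xCR replicate 4 they were 0.68 and 0.66.

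Fezf2, the zinc finger factor that selects the subcerebral fate of layer 5, was the scarcest of the set by mean normalized count. It had 24.1, 17.7 and 0 in the 3xCR libraries, and 167, 2.96, 47.0 and 13.4 in the GPC6 libraries. As for Tbr1, 3xCR replicate 4 and GPC6 replicate 2 were the lowest libraries (0 and 3 reads). Its log2 fold change was 1.74 with a 95% interval from -1.83 to 5.31 (limma adjusted p = 0.759). It was 0.85 without GPC6 replicate 1, 2.65 without GPC6 replicate 2 and 0.27 without 3xCR replicate 4.

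**Figure D1:**
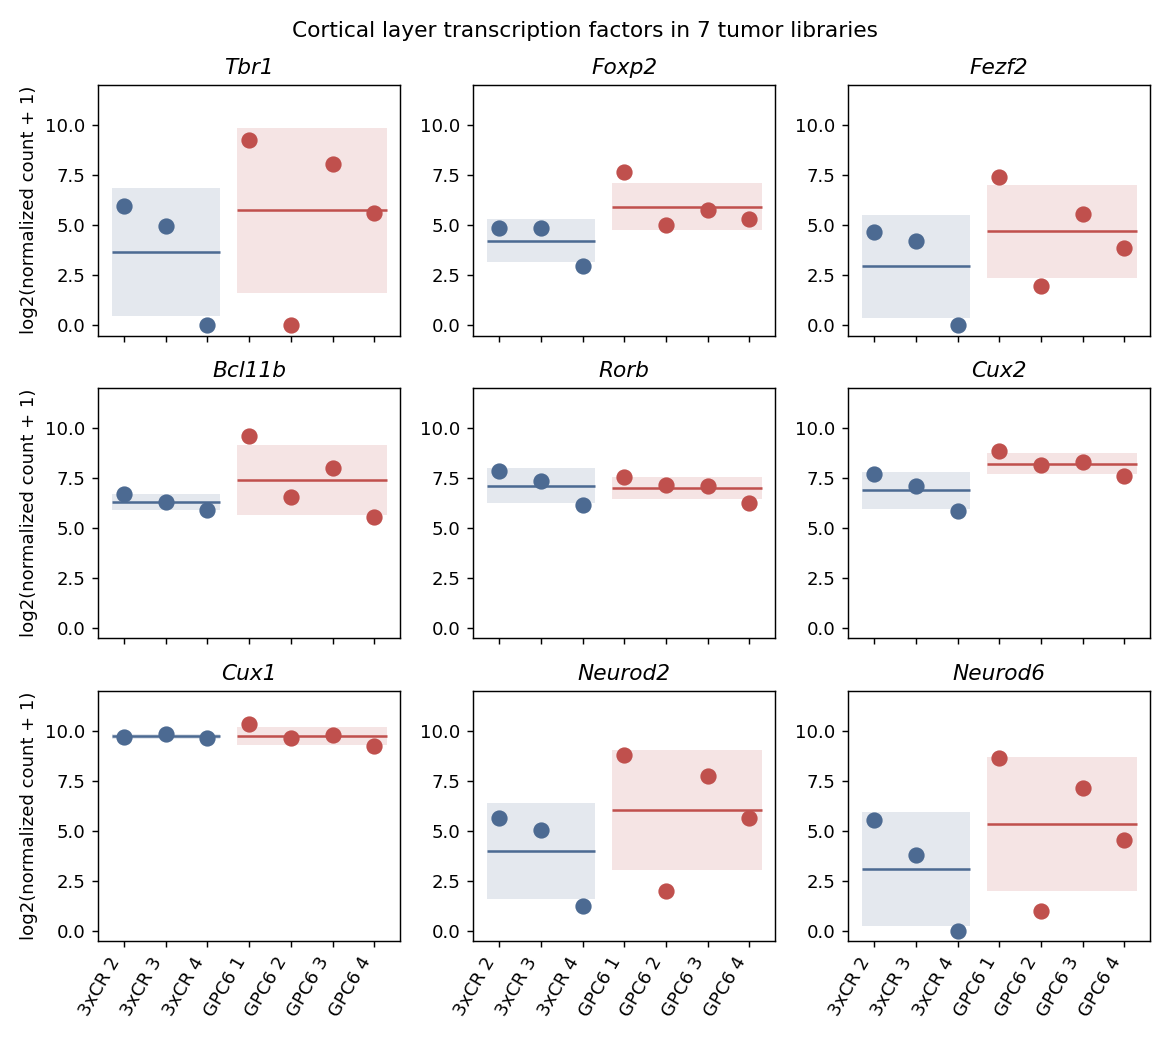
Level of each gene in the 7 libraries as log2(normalized count + 1), with 3xCR in blue and GPC6 in red, a line at the group mean and a band of 1 SD. Tbr1, Fezf2, Neurod2 and Neurod6 are at or near 0 in 3xCR replicate 4 and GPC6 replicate 2, whereas Cux1 stays between 604 and 1275 normalized counts in every library.

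Bcl11b, a zinc finger factor that acts downstream of Fezf2 in layer 5 neurons, did not show those gaps. Its normalized counts were 101, 78.1 and 59.4 in the 3xCR libraries, and 762, 92.9, 253 and 46.3 in the GPC6 libraries. The 3xCR libraries lay inside the GPC6 range, whose lowest library was replicate 4. Bcl11b had a log2 fold change of 1.12 (95% interval -0.89 to 3.13, limma adjusted p = 0.742), which became 0.40 without GPC6 replicate 1 and 1.41 without GPC6 replicate 2. Among the other cells that use Bcl11b, the 10 T cell markers summed to 2486 in 3xCR replicate 4 and to 391 to 630 in the other libraries, and 0 of the 10 had a log2 fold change above 0. The 11 markers of striatal projection neurons, led by Ppp1r1b (DARPP-32), summed to 829 to 2876 in 3xCR and to 851 to 22441 in GPC6 libraries. Their highest sum was in GPC6 replicate 1 and their lowest GPC6 sum in replicate 4, as for Bcl11b, and the part of these cells in Bcl11b was not tested.

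Foxp2, a forkhead factor of layer 6 neurons and of striatum, was the one gene of the 9 whose groups did not overlap. It had 28.5, 27.9 and 6.91 normalized counts in the 3xCR libraries, and 199, 31.6, 52.3 and 38.1 in the GPC6 libraries. The gap was narrow: the highest 3xCR value rested on 52 reads (exact Poisson 95% interval 21.3 to 37.4 normalized counts) and the lowest GPC6 value on 32 reads (21.6 to 44.6), and these counting intervals overlap. Among all genes tested, 2.80% had groups that did not overlap with GPC6 higher, against 1 of the 9 here. Its log2 fold change was 1.69 (95% interval -0.11 to 3.48, limma adjusted p = 0.730). The value was 1.11 without GPC6 replicate 1, 1.98 without GPC6 replicate 2 and 1.06 without 3xCR replicate 4. The sum of the striatal markers was likewise highest in GPC6 replicate 1 and lowest in 3xCR replicate 4 (829), but it was nearly as low in GPC6 replicate 4 (851), where Foxp2 was the third highest of the 7. The part of striatal neurons in Foxp2 was not tested.

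Rorb, the orphan nuclear receptor of layer 4, was the one gene with a fold change below 0. Its normalized counts were 226, 162 and 69.1 in the 3xCR libraries, and 185, 139, 138 and 74.1 in the GPC6 libraries, so that 3xCR replicate 2 was the highest library. The log2 fold change was -0.094 (95% interval -1.21 to 1.02, limma adjusted p = 0.963), and its sign turned without 3xCR replicate 2 (0.27), 3xCR replicate 3 (0.029) or GPC6 replicate 4 (0.16). Leaving out GPC6 replicate 1 gave -0.27, and leaving out GPC6 replicate 2 gave -0.14. The 10 astrocyte markers, with Gfap the most abundant, summed to 62351, 55507 and 15578 in 3xCR replicates 2, 3 and 4 and to 67475, 28616, 53697 and 27958 in GPC6 replicates 1, 2, 3 and 4. Both that sum and Rorb were lowest in 3xCR replicate 4, whereas GPC6 replicates 2 and 4 had nearly the same sum and differed in Rorb (139 and 74.1). Gfap supplied 8662 and 14206 of the sums in GPC6 replicates 2 and 4, and the single markers went both ways. S100b had 5186 and 1040 in these libraries, and Aldh1l1 had 234 and 524, so the near-equal sums do not mean equal markers. The part of astrocytes in this gene was not tested. Of the 7 thalamic markers, 4 had a log2 fold change above 0 and none an unadjusted limma p under 0.05.

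Cux2, a homeobox factor of upper-layer neurons, had the smallest limma p of the 9. Its normalized counts were 205, 137 and 56.6 in the 3xCR libraries, and 461, 283, 310 and 194 in the GPC6 libraries. GPC6 replicate 4 lay just under 3xCR replicate 2, and the other GPC6 libraries lay above all 3xCR libraries. The means were 133 ± 74.3 (SD, n = 3) and 312 ± 111 (SD, n = 4), a log2 fold change of 1.34 with a 95% interval from 0.23 to 2.45. The unadjusted limma p was 0.024 and the Benjamini-Hochberg adjusted p over all genes 0.730, so the difference did not pass the test. Leaving out 3xCR replicate 4 gave 0.83 and leaving out 3xCR replicate 2 gave 1.74, while the values without GPC6 replicate 1 and without GPC6 replicate 2 were 1.13 and 1.37. Unlike Tbr1, Cux2 kept 286 reads in GPC6 replicate 2, the library with the highest sum of the 8 oligodendrocyte precursor markers (78564, against 14919 to 57350 in the other 6). Whether precursor or tumor cells contributed to Cux2 was not tested.

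Cux1, the paralog of Cux2, was the most abundant of the 9 and the steadiest. It had 830, 915 and 785 normalized counts in the 3xCR libraries, and 1275, 804, 881 and 604 in the GPC6 libraries. The 3xCR libraries lay within the GPC6 range. The log2 fold change was 0.030 (95% interval -0.59 to 0.65, limma adjusted p = 0.980) and -0.023 after upper quartile scaling. With GPC6 replicate 1 left out it was -0.16, and with GPC6 replicate 2 left out 0.062. The SD of Cux1 on the log2 scale over the 7 libraries was 0.32, smaller than that of most genes, as 24.2% of the genes tested had a smaller one. That of Tbr1 was 3.63, and 99.9% of the genes had a smaller one.

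Levels of different genes were compared per kilobase of exon. The median of the normalized count per kb over the 7 libraries was 41.5 for Cux1, 20.3 for Cux2, 15.7 for Neurod2, 12.6 for Rorb, 11.5 for Bcl11b, 10.5 for Neurod6, 8.81 for Tbr1, 5.80 for Fezf2 and 1.93 for Foxp2. Neighbours in this order below Cux1 had ranges that overlapped widely, since Neurod6 ran from 0 to 188 and Rorb from 6.24 to 20.4. The order also changed between libraries. In GPC6 replicate 1 Neurod6 was highest (188 normalized counts per kb), followed by Neurod2 (141) and Tbr1 (112), and Cux1 (63.7) was below Bcl11b (93.9). In 3xCR replicate 4 Cux1 (39.2) was highest and Tbr1, Fezf2 and Neurod6 had no read.

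The summed level of the deep-layer genes against that of the upper-layer genes differed between libraries. The 4 deep-layer genes (Tbr1, Foxp2, Fezf2 and Bcl11b) made up 28.9%, 23.5% and 13.2% of the summed level per kb of deep-layer and upper-layer genes in the 3xCR libraries. In the GPC6 libraries their share was 68.4%, 15.1%, 53.1% and 27.5%. GPC6 replicates 1 and 3 were thus above every 3xCR library and GPC6 replicates 2 and 4 within their range. The upper-layer sum (Rorb, Cux2 and Cux1) varied less, between 51.0 and 126 normalized counts per kb, against 7.75 to 273 for the deep-layer sum and 0.44 to 328 for the sum of Neurod2 and Neurod6. Cux1, which is used in most cell types, made up 39.2 of 51.0 in 3xCR replicate 4 and 40.2 of 80.8 in GPC6 replicate 2. The deep-layer share can therefore change with the amount of neurons and is not a measure of cortical layers alone. Cux1 alone held 28.3% of all normalized counts of the 9 genes in GPC6 replicate 1 and 80.2% in 3xCR replicate 4. Between the paralogs, the level per kb of Cux1 was 2.04, 3.37 and 6.98 times that of Cux2 in the 3xCR libraries and 1.39, 1.43, 1.43 and 1.56 times in the GPC6 libraries. This ratio was chosen after its values were seen and was not tested.

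**Figure D2:**
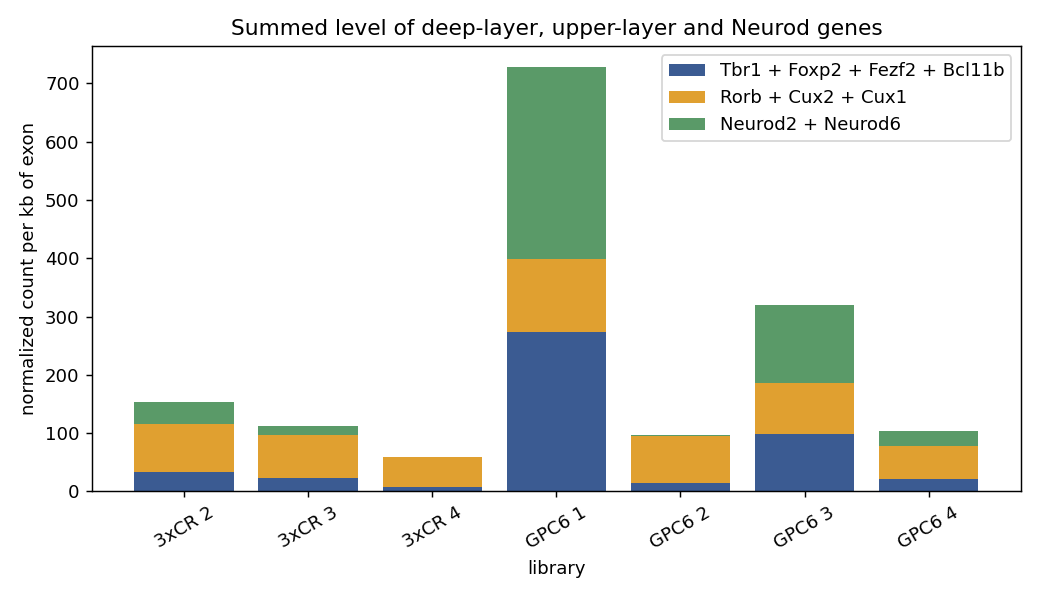
Normalized counts per kb of exon summed over 4 deep-layer genes (blue), 3 upper-layer genes (orange) and Neurod2 with Neurod6 (green), stacked for each library. The upper-layer part lies between 51.0 and 126 in every library, while the deep-layer part reaches 273 and the Neurod part 328 in GPC6 replicate 1. The upper-layer part includes Cux1, which is used in most cell types.

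Across all genes, limma called 0 of 14782 genes at an adjusted p under 0.05 (0%), and 0 of the 9 genes were called. DESeq2 on the recovered reads called 9 genes, with Cux1 and Cux2 not among them and no adjusted p for the other 7 genes of the set after its independent filtering. edgeR and voom called 0 at this threshold, and 689 genes had an unadjusted limma p under 0.05. At an unadjusted p under 0.05 with GPC6 higher there were 405 genes in all (2.74%), and 1 of the 9 (Cux2). Under upper quartile scaling the unadjusted calls were 327 higher and 388 lower in place of 405 and 284, and under equal total scaling 485 and 228, and in each the one call among the 9 was Cux2. A log2 fold change above 1 was seen in 7 of the 9 genes, against 8.15% of all genes, and one above 0 in 8 of the 9 (7 after upper quartile scaling, where Cux1 turned), against 48.3% of all genes. The median log2 fold change was 1.69 over the 9 genes and -0.019 over all genes tested. These genes share their libraries and rise and fall with the same few of them, so the counts are not 9 separate observations. The 9 genes were also chosen with earlier results of these data known. The median over the 9 was 0.66 without 3xCR replicate 4. It was 0.91 without GPC6 replicate 1, and 2.01 without 3xCR replicate 2. Without GPC6 replicate 2, the library with little Gpc6, 4 of the 9 had an unadjusted p under 0.05 (Cux2, Foxp2, Neurod2 and Tbr1) among 1399 such genes in all, and 0 genes were called after adjustment. Without GPC6 replicates 1 and 2 the median was 1.27, and 0 of the 9 had an unadjusted p under 0.05.

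Other transcription factors of cortical projection neurons gave a smaller median. Of 25 further factors, 23 had a log2 fold change above 0 with a median of 0.41, and 1 had an unadjusted limma p under 0.05, which was Lmo3, a LIM-domain cofactor (log2 fold change 2.15, adjusted p = 0.730). Myt1l, a zinc finger factor that keeps neurons neuronal, had the largest value (3.00, adjusted p = 0.730), and Id2, an inhibitor of basic helix-loop-helix factors, the smallest (-0.56). Lmo4 was the most abundant of these factors and lay between 1085 and 2181 normalized counts in all libraries, with a log2 fold change of 0.11. Progenitor factors of the cortex had a median near that of all genes: of 8 tested, 4 had a log2 fold change above 0, the median was 0.082, and Sox2, the most abundant, had 0.23.

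Layer-enriched genes that encode no transcription factor were read beside the factors, in the same libraries. Whether their RNA came from the same neurons was not tested. Of 20, 18 had a log2 fold change above 0 with a median of 0.83, and 4 had an unadjusted limma p under 0.05 with GPC6 higher (2.74% of all genes), while 0 passed adjustment. Groups that did not overlap, with GPC6 higher, were seen in 4 of the 20, against 2.80% of all genes. Lamp5, a membrane protein of superficial layers and of some interneurons, had 28.7 ± 25.8 normalized counts (SD, n = 3) in 3xCR and 563 ± 864 (SD, n = 4) in GPC6 tumors, and 1853 in GPC6 replicate 1 alone. Its log2 fold change of 3.45 was the largest of the list (limma adjusted p = 0.730). Syt6, a synaptotagmin of layer 6 neurons, was like Lamp5 among the genes whose groups did not overlap (175 against 362 on average, log2 fold change 1.03, limma adjusted p = 0.730). Crym, the most abundant, had a log2 fold change of -0.0052, and Ctgf, a marker of the layer beneath layer 6, had -0.61. Crym was highest in 3xCR replicate 4 (2405 normalized counts), where Tbr1 had no read.

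The 15 pan-neuronal genes had a median log2 fold change of 1.56, with 15 above 0, although not every one of them followed the libraries of Tbr1. Gap43, a growth cone protein, was highest in GPC6 replicate 2 (3348 normalized counts), and Stmn2, a tubulin-binding protein of growing neurites, had 1776 in 3xCR replicate 4, 2 libraries in which Tbr1 had no read. The 10 genes of forebrain glutamatergic neurons had a median log2 fold change of 2.68, with 10 above 0. Slc17a7, the vesicular glutamate transporter VGLUT1 of cortical neurons, had 1107, 524 and 22.1 normalized counts in the 3xCR libraries, and 9631, 61.3, 10980 and 1715 in the GPC6 libraries. The 2 lowest and the 2 highest libraries were the same as for Tbr1. The 12 interneuron markers had a median log2 fold change of 2.39 with 12 above 0. In bulk tissue, fewer neurons in the piece taken and less RNA of these genes per neuron cannot be told apart.

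The pan-neuronal score, the mean over the 15 genes of the log2 value minus its mean over the libraries, was -0.19, -0.72 and -1.50 in the 3xCR libraries, and 2.07, -0.92, 1.321 and -0.061 in the GPC6 libraries. Tbr1, Neurod2, Neurod6 and Fezf2 had at most 3 reads in the 2 libraries of lowest score and were highest in the 2 of highest score. With this score as a covariate in the limma fit, the log2 fold change of Tbr1 was -2.32 (SE 1.15), that of Neurod2 -1.24 (SE 0.81), that of Neurod6 -1.58 (SE 0.84) and that of Fezf2 -1.04 (SE 0.91), and those of Bcl11b, Rorb and Cux1 were -0.36, -0.61 and -0.29. Cux2 and Foxp2 had 0.74 (SE 0.48) and 0.46 (SE 0.61). The limma adjusted p was 1.00 for each of the 9, and 0 of them were below an unadjusted p of 0.05, so neither sign was shown once the neuronal score was held.

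**Figure D3:**
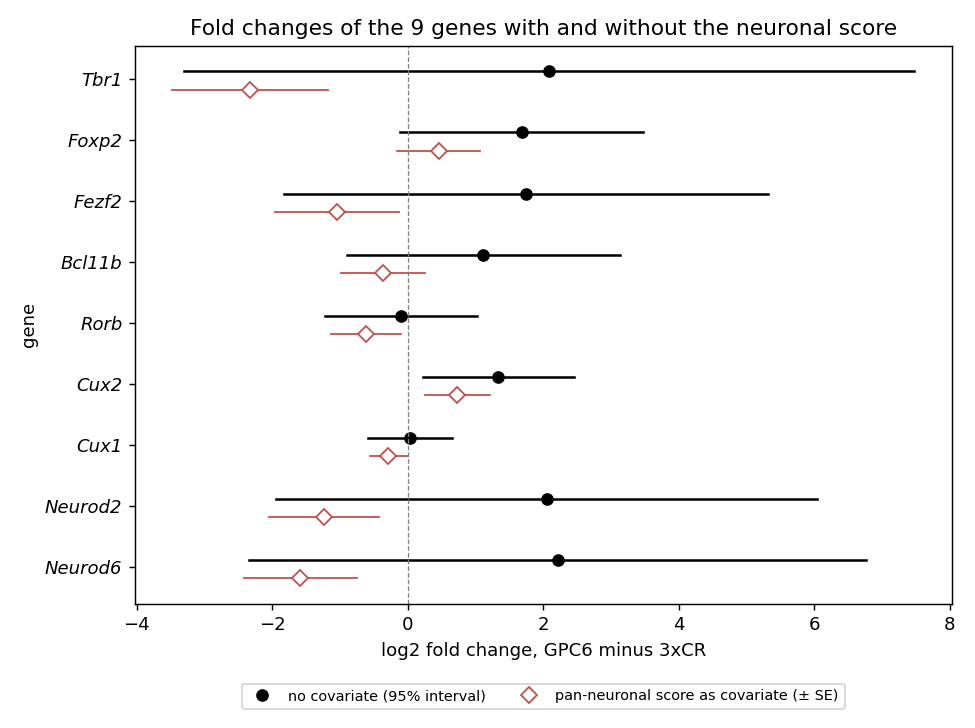
Log2 fold change of GPC6 against 3xCR tumors for each gene from limma, without a covariate (black, 95% interval) and with the pan-neuronal score as a covariate (red, ± SE). Only the Cux2 interval lies above 0 without the covariate (0.23 to 2.45), and with it 2 of the 9 estimates are above 0.

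A level relative to neurons was taken in each library as the log2 value of a gene minus the mean log2 value of the 15 pan-neuronal genes. For Rorb this difference was -1.94 ± 0.24 (SD, n = 3) in 3xCR and -3.44 ± 1.15 (SD, n = 4) in GPC6 tumors, a difference of -1.499 (two-sided exact permutation test, p = 0.171). The same difference for Cux1 was -1.37 (exact permutation test, p = 0.171). The library labelled GPC6 replicate 2 was within the 3xCR range in both, with -1.79 for Rorb and 0.73 for Cux1. The other 3 GPC6 libraries lay between -4.37 and -3.55 for Rorb and between -1.59 and -0.54 for Cux1, below all 3xCR libraries. Those 3 also had the highest pan-neuronal scores (2.07, 1.321 and -0.061), whereas GPC6 replicate 2 (-0.92) was within the 3xCR scores. A gene that varies less than the score, as both did, tends to be lower in this difference where the score is higher. GPC6 replicate 4 and 3xCR replicate 2 had close scores (-0.061 and -0.19), however. They still differed in this value for Rorb (-3.55 and -1.82) and for Cux1 (-0.54 and 0.053). What produced the split of the libraries was not tested. For Cux2 the group difference was -0.063 (exact permutation test, p = 0.914), and for Bcl11b it was -0.29 (p = 0.743 by the same exact test). Foxp2, Fezf2, Neurod2, Tbr1 and Neurod6 gave differences between 0.28 and 0.81 with exact permutation p-values from 0.457 to 0.80. None of these 9 comparisons passed, and 3 libraries against 4 allow no exact permutation p under 0.057. With the 10 genes of forebrain glutamatergic neurons as the reference, all 9 differences were below 0 and their median was -0.79, in place of 0.28 with the pan-neuronal reference.

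**Figure D4:**
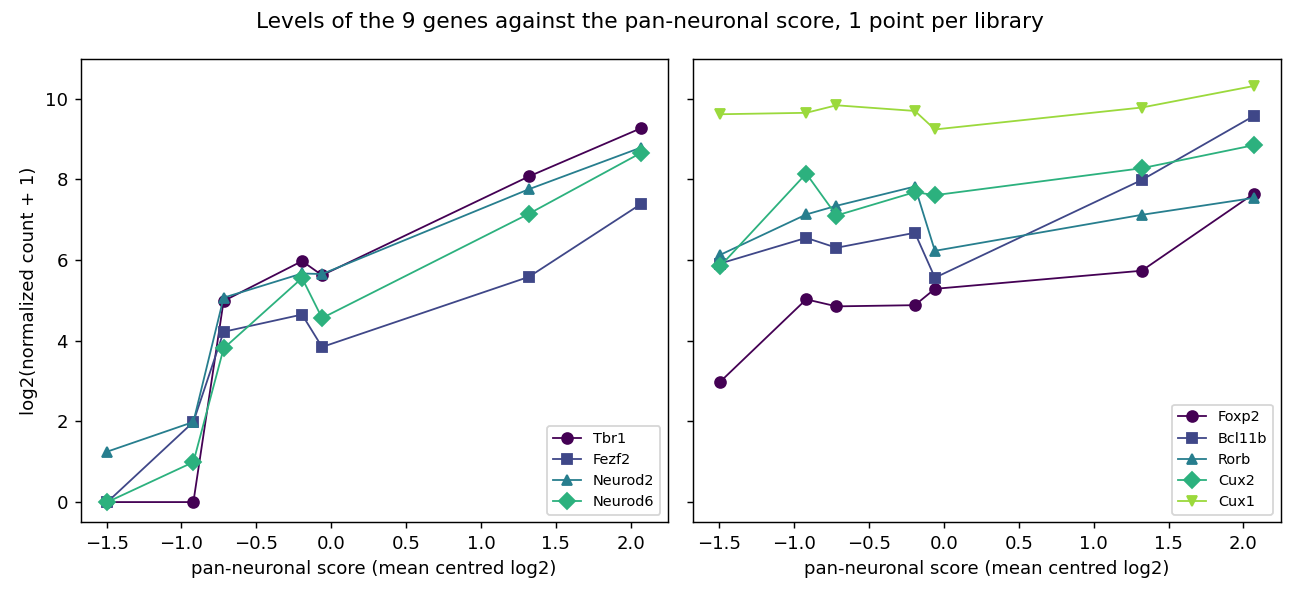
Level of each gene as log2(normalized count + 1) against the pan-neuronal score of the library, 1 point per library and lines joining the points of a gene. The 4 genes on the left climb from 0 to 1.38 normalized counts at the lowest score to 167 to 617 at the highest. On the right, Bcl11b goes from 59.4 to 762, Foxp2 from 6.91 to 199 and Cux2 from 56.6 to 461 between those libraries. Cux1 and Rorb, also on the right, stay within 604 to 1275 and 69.1 to 226.

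The genes with the most similar profile to each of the 9 were sought by the root mean square difference of the centred log2 values over the 7 libraries, among 12632 genes whose mean reached 50 normalized counts. Tbr1 was nearest to Neurod6 (0.70) and Slc17a7 (0.71). Neurod6 was nearest to Neurod2 (0.46) and to Vip, a neuropeptide of interneurons (0.54). Neurod2 was nearest to Golga7b and to Rtn4r, the Nogo receptor (both 0.40), and Fezf2 to Nrsn1 (0.38) and Kcnj9, a potassium channel subunit (0.47). For Bcl11b these were Arhgap26 and Dusp8 (both 0.26), for Foxp2 Smpd3 (0.21) and Ppp1r9a (0.24), and for Cux2 Syn3, a synapsin, and Gpm6a (0.17 and 0.18). Rorb was nearest to Acsbg1 and Sfxn5 (0.19 and 0.20) and Cux1 to Rasal2 and Vps4a (0.057 and 0.091). A small difference is easier to reach for a gene that varies little, so these distances are compared within a gene and not between genes.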

How the data were processed

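RNA-Seq of 7 endpoint tumors was used, 3 of the 3xCR and 4 of the GPC6 group, grouped by sample title. Per the labels and the methods, the authors aligned reads to mm10 with STAR 2.5.0a, built a matrix of counts per gene and scaled each library with a size factor of DESeq2 1.20.0. The deposited values are this normalized signal, with no length correction. Whether counting used strand is not given in the sources used here, and overlapping antisense transcripts are annotated for Cux1 and Cux2. Of 19282 entries, 25 with names turned into dates (0.254% to 0.361% of reads) were left out. Dividing by the value of 1 read gave whole reads for 100% of values (within 0.01), 7197692 to 18879762 per library, which sets the counting error of low genes. No column of another sample was present.

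limma 3.58.1 (R 4.3.3, variance trend, two-sided, Benjamini-Hochberg) was fitted to log2(normalized count + 1) for 14782 genes, those whose mean reached 10, which understates changes of low genes. Since the values are normalized, count tests were alternatives only: edgeR 4.0.16, DESeq2 1.42.0 and voom ran on the recovered reads, beside other pseudocounts, filters, scalings, library weights, a replicate block, a neuronal covariate and libraries left out. The limma step was tested on simulated counts with the same dispersion for every gene and the same tissue makeup in every library. That check does not measure power or error in the tumors, which vary more. Exon lengths were taken from GENCODE M21. The labels do not name separate litters, so p-values cover the spread between these tumors. The 9 genes and the lists were chosen with earlier results of these data known. Genes named besides the 9 were, per list, those of highest mean and of largest and smallest fold change, and the 2 nearest in profile. Beyond this rule, Lmo3, Syt6, Gap43, S100b and Aldh1l1 were named after their values were seen.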

Additional observations from a re-analysis of the deposited data

How the results depend on the processing

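Limits are set by 3 and 4 libraries and by few reads, as Tbr1, Fezf2 and Neurod6 had 0 reads in 3xCR replicate 4. The count of genes at an adjusted p under 0.05 was 0 by limma and 9 by DESeq2, and 1962 with arrayWeights, which called Cux2 (adjusted p = 0.029) and Bcl11b (0.048) among the 9, where the adjusted p over all alternatives ran up to 1.00. Without each library in turn that count was 0. Unadjusted calls, 689 by limma, were 1793 by DESeq2, 5105 with arrayWeights and 320 with the neuronal covariate, and 121 to 1399 without each library. DESeq2 gave 4 of the 9 an unadjusted p under 0.05 (Bcl11b, Cux2, Foxp2 and Neurod2), and edgeR and voom gave 1 each (Cux2). With GPC6 replicate 1, GPC6 replicate 3 or 3xCR replicate 4 left out it was 0. Cux2 was above 0 in 21 of 21 alternatives and below an unadjusted p of 0.05 in 16.

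The median log2 fold change of the 9 genes was 0.66 to 2.01 without each library and -0.61 with the neuronal covariate, where Tbr1 (-2.32), Fezf2 (-1.04), Bcl11b (-0.36), Cux1 (-0.29), Neurod2 (-1.24) and Neurod6 (-1.58) turned. Cux1 also turned with upper quartile scaling (-0.023), arrayWeights (-0.056) and without GPC6 replicates 1 and 2 (-0.21), and was -0.16 to 0.20 without each library. Rorb was -0.58 to 0.27 without each library. Relative to pan-neuronal genes the median difference of the 9 was 0.28, -0.40 to 0.54 without each library, and -0.79 when genes of forebrain glutamatergic neurons were the reference, and the cause was not tested.

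The labels do not say whether the replicate numbers pair the libraries. Deviations of same-numbered libraries correlated with r of -0.19, 0.12 and 0.30 across genes for replicates 2, 3 and 4. No values for differently numbered libraries are given beside them, so they cannot decide whether the libraries were paired. With the replicate block, 0 genes were called and 678 had an unadjusted p under 0.05, the block turned Cux1 (-0.16), and it gave the fold changes without GPC6 replicate 1, which has no partner.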
